A study of Homo sapiens with 12 samples.

Results

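FaDu cells, an established line of head and neck squamous cell carcinoma (HNSCC), were compared with and without STING after fractionated radiation. RNA was measured in 3 libraries of irradiated STING KO cells and 3 libraries of irradiated STING WT cells, and both groups had received 4 daily fractions of 2 Gy. The comparison covered every gene at 1 TPM (transcripts per 1000000) or more in at least 3 of the 12 libraries of the series, which was 15973 of the 58288 genes listed. The other 6 libraries came from the same STING KO and STING WT cells without radiation. They were set beside the irradiated cells to see whether the effect of STING loss differed with radiation. Both genotypes were populations of FaDu cells expressing Cas9, grown in DMEM with 10% FBS. The KO cells carried 1 guide RNA against STING and the WT cells carried 1 non-targeting guide RNA, so a difference between the genotypes is a difference between these populations. The labels do not say that the 3 libraries of a group came from separate cultures, so the p-values measure the spread between these libraries, which may be technical. The time between the last fraction and collection of RNA was not given in the sources used here.

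STING is an adaptor protein of the endoplasmic reticulum. It is switched on by the cyclic dinucleotide that the enzyme cGAS makes when it binds DNA in the cytosol, and it then recruits the kinase TBK1, which phosphorylates the transcription factor IRF3. IRF3 and secreted interferons turn on interferon-stimulated genes, the latter through the JAK kinases and a complex of STAT proteins and IRF9 that binds the interferon-stimulated response element in promoters. Many of these genes encode antiviral proteins, peptide-loading proteins and chemokines, and epithelial tumor cells can express them without infection. In bulk RNA, fewer cells expressing a gene and less RNA per cell cannot be told apart.

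The gene of the targeted protein, TMEM173 (ENSG00000184584.12, chromosome 5: 139475534 to 139482935, minus strand, hg38), was measured first. It was at 26.1, 21.4 and 21.7 TPM in the irradiated STING WT libraries and at 6.35, 7.41 and 7.08 TPM in the irradiated STING KO libraries. Every KO library lay below every WT library, in the direction of the labels. The mean fell 3.32-fold, from 23.1 ± 2.61 to 6.95 ± 0.544 TPM (SD, n = 3 each). The log2 fold change was -1.60 (SE 0.11, adjusted p = 2e-05), and a two-sided exact permutation test of 3 against 3 libraries gave p = 0.1, the smallest that it can give. Here and below, log2 fold changes are differences of log2(TPM + 1), KO minus WT, which understate changes of genes at low TPM, and adjusted p-values come from limma with Benjamini-Hochberg adjustment over all genes tested and a threshold of 0.05. RNA of the gene does not measure the protein. Of the 29 genes tested within 1 Mb of TMEM173, 0 passed the threshold, against 3.59% of all genes tested. By limma 6 of the 29 had an unadjusted p under 0.05, against 2855 of all 15973 genes. The log2 fold changes of the 29 ran from -0.64 to 0.70.

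Irradiated STING KO cells had lower RNA of antiviral and other interferon-stimulated genes, of the ISG15 conjugation enzymes, and of single secreted factors such as CCL5 and FGF2. They had higher RNA of a smaller set that held several matrix metalloproteinases, keratin KRT4 and the scaffold AHNAK. In all, 573 genes passed the threshold (3.59% of those tested), of which 425 were lower (2.66%) and 148 higher (0.927%) in KO cells. The decreases were also the larger changes. Of the 83 genes that passed and changed at least 2-fold, 78 were lower and 5 higher. The median log2 fold change was -0.49 among the lower and 0.41 among the higher genes, against -0.017 over all genes tested. In each of the 573, all 3 KO libraries lay on one side of all 3 WT libraries, which held for 24.1% of all genes tested. With quantile-normalized values the split was 364 lower and 203 higher, 35.8% higher against 25.8% here. Here WT 1 to 3 and KO 1 to 3 name the irradiated libraries. Leaving out 1 of them moved the total most for WT 1 (313), WT 2 (317), KO 3 (324), WT 3 (355) and KO 2 (373).

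**Figure D1:**
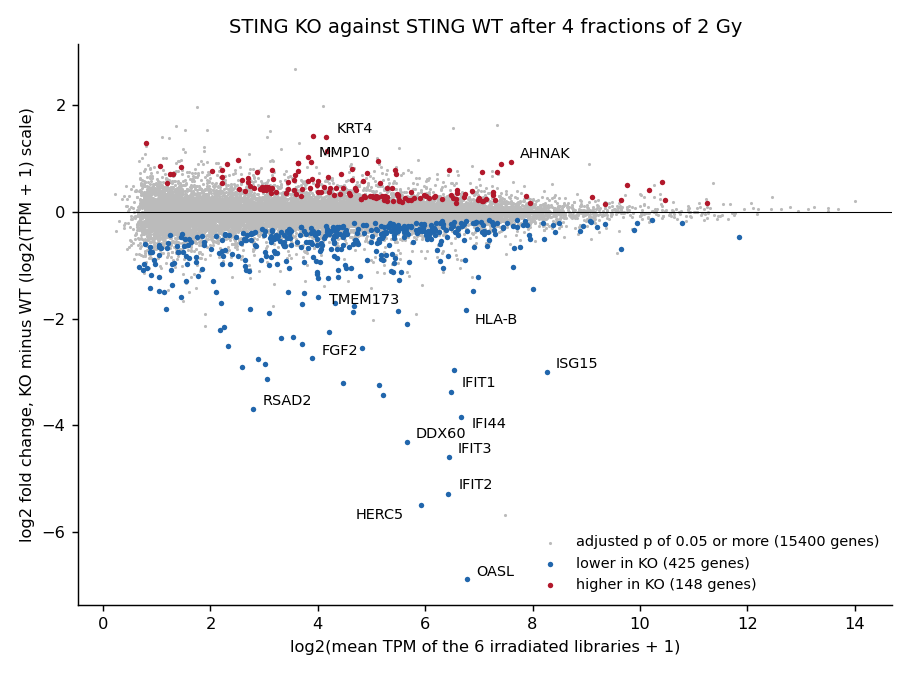
Log2 fold change (STING KO minus STING WT, irradiated cells, on the log2(TPM + 1) scale) of 15973 genes against their mean level over the 6 irradiated libraries, with genes past the threshold in blue (425 lower) or red (148 higher). The lower genes reach -6.88 (OASL), and the labelled higher genes lie between 0.94 (AHNAK) and 1.41 (KRT4).

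Promoter sequence was looked at for the 15 largest decreases, of which 11 matched the RefSeq table used here and OASL, IFIT2, OAS2 and CCL5 were not analysed. The stretches printed here end 51 bases before the annotated start. They belong to 4 of those 11 genes, each with more than 1 match to the motif described next, and, for comparison, to MMP10 and KRT4, which rose. DDX60, IFI44L and IFI27 also hold more than 1 match and are not printed. The stretches were taken from RefSeq (GRCh38.p14) and are written 5′ to 3′ on the strand of the gene. Capitals mark GAAA followed after any 2 bases by a second GAAA, on either strand. This is a pair of half-sites of the interferon-stimulated response element. In MMP10 they mark a match to TGANTCA, a loose search pattern for AP-1 sites that leaves the middle base open (A in this match). N stands for any base and overlapping matches run together.
HERC5, chr4:88456949-88457068, plus strand: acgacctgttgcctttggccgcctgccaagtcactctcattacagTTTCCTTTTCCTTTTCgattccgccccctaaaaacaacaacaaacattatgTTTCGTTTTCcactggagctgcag
IFIT3, chr10:89327827-89327946, plus strand: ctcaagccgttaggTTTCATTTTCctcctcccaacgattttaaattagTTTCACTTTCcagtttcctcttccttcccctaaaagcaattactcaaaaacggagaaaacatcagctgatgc
IFIT1, chr10:89392453-89392572, plus strand: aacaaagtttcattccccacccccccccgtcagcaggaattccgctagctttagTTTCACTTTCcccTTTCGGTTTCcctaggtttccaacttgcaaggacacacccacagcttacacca
ISG15, chr1:1013327-1013446, plus strand: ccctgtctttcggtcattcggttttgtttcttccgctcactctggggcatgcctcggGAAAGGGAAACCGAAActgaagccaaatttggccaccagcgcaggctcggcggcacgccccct
MMP10, chr11:102780679-102780798, minus strand: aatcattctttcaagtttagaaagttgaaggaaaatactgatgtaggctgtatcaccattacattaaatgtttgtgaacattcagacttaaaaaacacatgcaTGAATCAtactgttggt
KRT4, chr12:52814167-52814286, minus strand: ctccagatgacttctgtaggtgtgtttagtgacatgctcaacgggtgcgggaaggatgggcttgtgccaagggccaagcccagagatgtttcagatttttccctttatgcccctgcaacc

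The RefSeq table held a promoter for 10725 of the genes tested and for 404 of the 573 genes past the threshold. In the 250 bases before a listed start, this GAAA pair was found on either strand in 347 of the 10725 promoters (3.24%). It was found in 10 of the 11 largest decreases with a promoter, DDX58 being the exception, in 38 of the 299 lower genes with a promoter (12.7%), and in 24 of the 51 that were lower by at least 2-fold (47.1%). Among the 105 higher genes it was found in 1, FAT2, an atypical cadherin named here after its value was seen. TGANTCA was found in 6.14% of all promoters, in 21 of the 299 lower genes (7.02%) and in 11 of the 105 higher genes (10.5%). Both motifs were chosen with earlier results of these data known, and a match describes letters in a window, not binding.

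Antiviral effectors, the proteins that block viral entry, translation or replication, made the group with the most genes past the threshold. Of 58 tested, 40 were lower (69.0%, against 2.66% of all genes) and 1 higher (1.72%, against 0.927% of all genes). The list's median log2 fold change was -0.88 against -0.017 over all genes. The largest decrease of any gene past the threshold was in OASL, a member of the oligoadenylate synthetase family that lacks the enzyme activity. The irradiated WT libraries held 227, 218 and 204 TPM and the irradiated KO libraries 0.975, 0.992 and 0.585 TPM. No KO library reached 1 TPM, and the log2 fold change was -6.88 (SE 0.12, adjusted p = 6.4e-10).

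The IFIT proteins bind viral RNA and restrain its translation. IFIT2 was at 172, 175 and 153 TPM in irradiated WT and at 3.52, 2.92 and 3.40 TPM in irradiated KO cells, which is -5.29 as a log2 fold change (SE 0.10, adjusted p = 8.7e-10). IFIT3 went from 174, 174 and 150 TPM to 5.38, 7.23 and 5.35 TPM (log2 fold change -4.59, adjusted p = 4.5e-08), and IFIT1 from 172, 171 and 144 TPM to 15.3, 15.1 and 13.6 TPM (log2 fold change -3.38, adjusted p = 2.1e-08). The 3 genes were at similar TPM in WT cells but not in KO cells, where IFIT1 kept the highest level. LIPA lies over all 3 on the other strand, and the sources used here do not say whether strand was used in counting.

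Several further effectors fell by more than 2 on the log2 scale. RSAD2, whose protein viperin makes a chain-terminating nucleotide, was at 14.1, 10.7 and 11 TPM in WT libraries and was listed at 0 in all 3 KO libraries (adjusted p = 5.3e-07, with no fold given against 0). MX1, a dynamin-like GTPase that traps viral particles, was at 62.6, 67.1 and 58.6 TPM in WT and at 5.09, 6.44 and 5.68 TPM in KO libraries (log2 fold change -3.25, adjusted p = 1.2e-06). OAS2, an enzyme that makes oligoadenylates when it binds double-stranded RNA, went from 43.2, 37.6 and 35.5 TPM to 3.48, 4.11 and 2.48 TPM (log2 fold change -3.20, adjusted p = 2.7e-05). The 3 KO libraries of each gene were far below its WT libraries. IFI44 (-3.84), IFI44L (-3.13) and IFI27 (-2.96) also fell, and the WT libraries of IFI27 varied most, from 124 to 233 TPM.

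ISG15 is a ubiquitin-like protein that is attached to newly made proteins, and the ISG15 conjugation list holds it with its enzymes. Of the 6 genes, 5 were lower (83.3%, against 2.66% of all genes) and 0 higher (against 0.927% of all genes). The list's median log2 fold change was -1.40. ISG15 itself was the most abundant gene among the 15 largest decreases, with 572, 519 and 553 TPM in irradiated WT and 71.9, 68.6 and 62.9 TPM in irradiated KO cells. The mean fell 8.09-fold, from 548 to 67.8 TPM (SE of the log2 fold change 0.09, adjusted p = 1.6e-08). HERC5, the main ligase that attaches ISG15, fell to a much lower level. It went from 125, 120 and 108 TPM to 1.73, 1.36 and 1.87 TPM (log2 fold change -5.48, SE 0.13, adjusted p = 3.8e-09). The related gene HERC6 (-1.87) and UBE2L6 (-0.92), the conjugating enzyme, fell less. USP18, the protease that removes ISG15 and also restrains the interferon receptor, was at 10.7, 11.5 and 10.5 TPM in WT and 6.47, 5.39 and 6.17 TPM in KO libraries (log2 fold change -0.77, adjusted p = 0.0046).

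**Figure D2:**
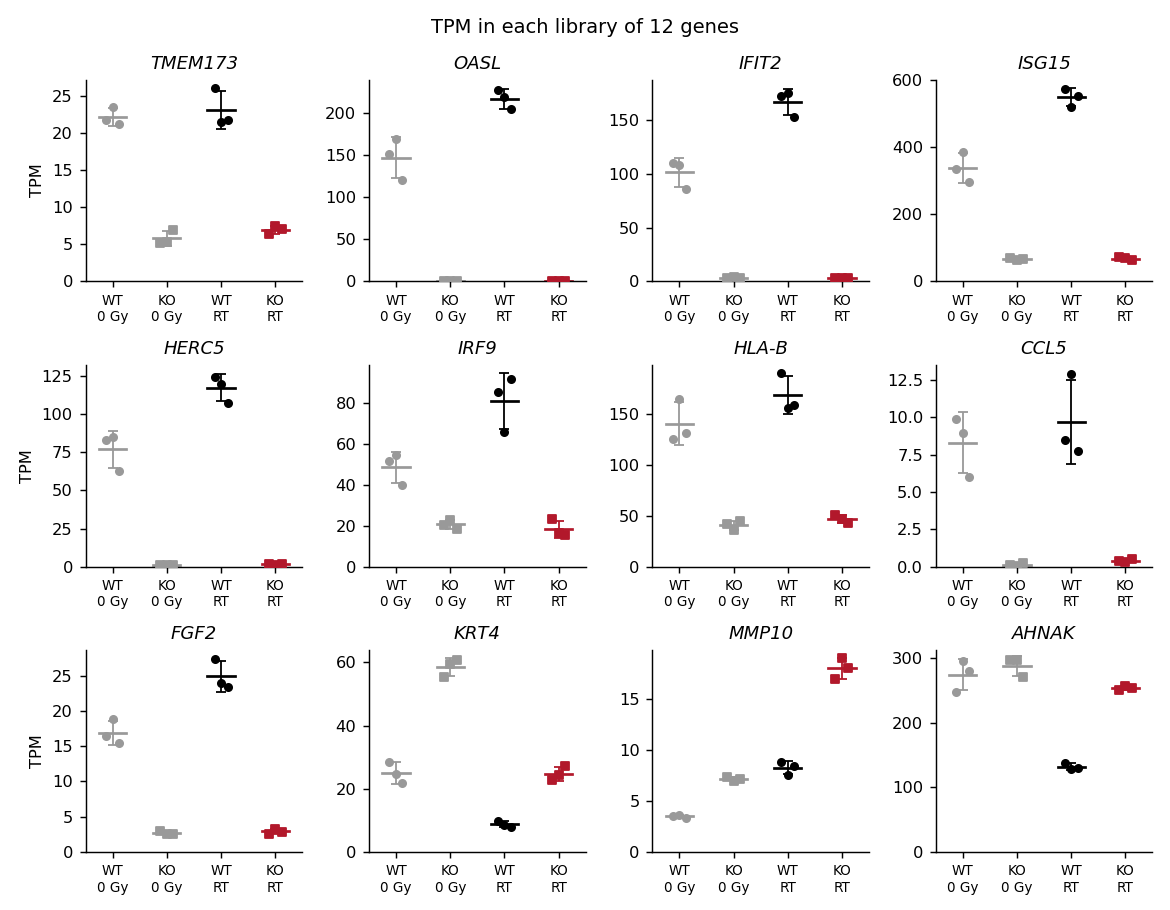
TPM of 12 genes in each library of the 4 groups (WT circles, KO squares, unirradiated grey, irradiated black or red), with the mean and SD of 3 libraries. In irradiated cells no KO library of these genes overlaps a WT library: TMEM173 to FGF2 are lower in KO, and KRT4, MMP10 and AHNAK are higher.

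Of 26 genes of nucleic acid sensing, 10 were lower (38.5%, against 2.66% of all genes) and 0 higher (against 0.927% of all genes). The list's median log2 fold change was -0.29, and TMEM173 is among the 10. The decreases were largest among sensors of RNA. DDX60, a helicase that aids RIG-I, went from 98.7, 97.2 and 88.4 TPM to 3.76, 3.91 and 3.79 TPM (log2 fold change -4.31, adjusted p = 4.4e-09). DDX58, which encodes RIG-I, went from 69.9, 68.3 and 62.6 TPM to 5.05, 5.23 and 5.73 TPM (log2 fold change -3.42, adjusted p = 4.5e-08). DHX58, which encodes the third RIG-I-like receptor, LGP2, fell by 1.72 (adjusted p = 0.00028). Genes that act directly before and after STING, named after their values were seen, did not pass the threshold. MB21D1, which encodes cGAS, had a log2 fold change of -0.05 (95% interval -0.16 to 0.05), TBK1 one of -0.02 (-0.14 to 0.10) and IRF3 one of -0.02 (-0.35 to 0.32).

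Of 25 genes of interferon signalling, 5 were lower (20%, against 2.66% of all genes) and 0 higher (against 0.927% of all genes). The list's median log2 fold change was -0.078. The largest decrease was in IRF9, the subunit that gives the interferon-activated complex its DNA specificity. It was at 85.5, 65.7 and 91.7 TPM in irradiated WT and at 23.1, 16.4 and 15.4 TPM in irradiated KO libraries, a change of -2.09 on the log2 scale (SE 0.18, adjusted p = 7.6e-05). IRF1 was lower as well (log2 fold change -0.73, adjusted p = 0.038), but its call was lost without any one of WT 1, WT 2, KO 1, KO 2 or KO 3, with adjusted p from 0.0678 to 0.124.

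Class I antigen presentation carries peptides of cytosolic proteins to the cell surface. Of 21 genes tested, 7 were lower (33.3%, against 2.66% of all genes) and 0 higher (against 0.927% of all genes). The list's median log2 fold change was -0.21. HLA-B, a heavy chain, went from 190, 156 and 159 TPM to 50.6, 46.3 and 43.0 TPM (log2 fold change -1.83, SE 0.12, adjusted p = 1.4e-05). HLA genes share sequence and the annotated HLA-B overlaps HLA-C, so the split of reads among them is uncertain. The immunoproteasome subunit PSMB9 (-0.90) and the peptide transporter TAP1 (-0.80) both fell with groups that did not overlap. The annotated TAP1 lies within PSMB9 on the opposite strand, so the split of reads between them is uncertain without the strand setting. HLA-F was lower (-0.85, adjusted p = 0.03), and its call was lost without WT 1, WT 3, KO 1 or KO 3 (adjusted p 0.0851 to 0.109).

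Among chemokines, cytokines and growth factors, 12 of 40 were lower (30%, against 2.66% of all genes) and 0 higher (against 0.927% of all genes). The list's median log2 fold change was -0.25. CCL5, which attracts T cells, was at 8.45, 12.9 and 7.71 TPM in WT and at 0.385, 0.325 and 0.486 TPM in KO libraries (log2 fold change -2.90, adjusted p = 1.5e-05). FGF2, a growth factor of fibroblasts and endothelium, was at 27.5, 24.0 and 23.4 TPM in WT and at 2.59, 3.27 and 2.78 TPM in KO libraries. Its groups lay far apart, with an 8.67-fold lower mean in KO cells (log2 fold change -2.74, SE 0.10, adjusted p = 9e-08). The gene overlaps NUDT6 on the opposite strand. VEGFC, a growth factor of lymphatic vessels, fell from 12.2, 13.5 and 11.6 TPM to 3.20, 2.55 and 2.16 TPM (log2 fold change -1.89, adjusted p = 5.8e-06). CXCL11, a ligand of CXCR3, was at 2.06, 2.04 and 1.98 TPM in WT cells and was listed at 0 in 2 of the 3 KO libraries (log2 fold change -1.48, adjusted p = 0.00015). None of the 24 NF-kB subunits and feedback genes passed the threshold by limma (0 lower and 0 higher), against 3.59% of all genes tested. By limma 3 of the 24 had an unadjusted p under 0.05, against 2855 of all 15973 genes. The log2 fold changes of the 24 lay between -0.29 and 0.29.

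**Figure D3:**
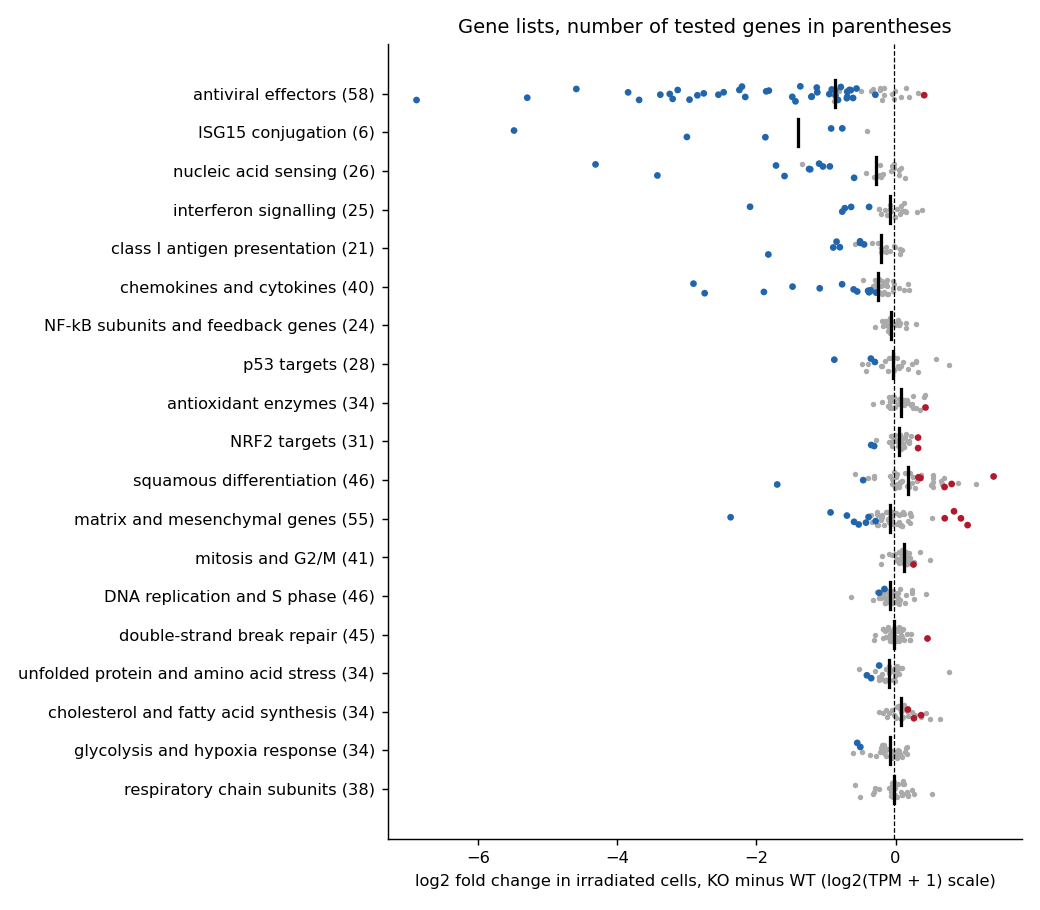
Log2 fold change in irradiated cells (KO minus WT, log2(TPM + 1) scale) of the tested genes of the gene lists, with genes past the threshold in blue or red, others in grey, a black bar at each list's median and a dashed line at the median of all genes. The medians of antiviral effectors (-0.88) and ISG15 conjugation (-1.40) lie farthest from the line. No NF-kB or respiratory chain gene is coloured, while 3.59% of all genes tested passed the threshold.

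Genes of oxidant metabolism were examined because the study followed reactive oxygen species in these cells. DUOX2, an oxidase that makes hydrogen peroxide, did not reach the level for testing and lay between 0.106 and 0.138 TPM in WT and between 0.0795 and 0.593 TPM in KO libraries. Of 34 antioxidant enzymes, 0 were lower and 1 was higher (2.94%, against 0.927% of all genes). This was SESN3 (log2 fold change 0.43, adjusted p = 0.01), a sestrin. Of 31 NRF2 targets, 2 were lower and 2 higher (6.45% each, against 2.66% and 0.927% of all genes). SLC7A11, the cystine transporter, went from 19.8, 20.1 and 21.1 TPM to 14.4, 16.5 and 16.3 TPM (log2 fold change -0.35, adjusted p = 0.015), and its call was lost without WT 2 or WT 3 (adjusted p 0.0514 and 0.0605). AKR1B1 (-0.31), EPHX1 (0.32) and PIR (0.32) lost their calls without 4 or 5 of the 6 irradiated libraries, with adjusted p of at most 0.134.

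Lists of proliferation and DNA damage genes held between 1 and 3 genes past the threshold each. Of 28 p53 targets, 3 were lower (10.7%, against 2.66% of all genes) and 0 higher, with a median log2 fold change of -0.03. CDKN1A, which encodes the cell cycle inhibitor p21, was at 49.0, 46.1 and 42.6 TPM in WT and at 27.6, 23.4 and 22.6 TPM in KO libraries, a 1.87-fold lower mean (log2 fold change -0.88, SE 0.09, adjusted p = 0.00042). AEN, an exonuclease induced by p53, fell by 0.35 (adjusted p = 0.0084). TNFRSF10B, a receptor of the death ligand TRAIL, was lower by less (-0.30, adjusted p = 0.033), and lost its call without WT 1, WT 2, WT 3, KO 2 or KO 3 (0.0731 to 0.112). Of 41 genes of mitosis and G2/M, 1 was higher (2.44%, against 0.927% of all genes), the mitotic kinesin KIF20A (log2 fold change 0.26, adjusted p = 0.013). The list's median was 0.12. Of 46 genes of DNA replication and S phase, 2 were lower (4.35%), the helicase subunits MCM7 (-0.24) and MCM3 (-0.16). Of 45 genes of double-strand break repair, 1 was higher (2.22%), MRE11, which is described with the unirradiated cells. Calls were lost without WT 2 or WT 3 for KIF20A (adjusted p 0.0504 to 0.0555) and without any one of the 6 irradiated libraries for MCM3 (0.0592 to 0.12).

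Among 34 genes of glycolysis and the hypoxia response 2 were lower (5.88%, against 2.66% of all genes). These were hexokinase HK2 (log2 fold change -0.51, adjusted p = 0.00085) and VEGFA (-0.55, adjusted p = 0.033). Of 34 genes of unfolded protein and amino acid stress 3 were lower (8.82%), SLC7A11, TRIB3 (-0.41) and PSAT1 (-0.23). Of 34 genes of cholesterol and fatty acid synthesis 3 were higher (8.82%, against 0.927% of all genes), with DHCR7 (0.37) among them. Of the genes named here, HK2 alone kept its call when any single irradiated library was left out. None of 38 respiratory chain subunits passed by limma (0 lower and 0 higher), against 3.59% of all genes tested. By limma 8 of the 38 had an unadjusted p under 0.05, against 2855 of all 15973 genes. The log2 fold changes of the 38 ran from -0.58 to 0.53.

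In squamous differentiation, 5 of 46 genes tested were higher (10.9%, against 0.927% of all genes) and 2 lower (4.35%, against 2.66%). The list's median log2 fold change was 0.18. KRT4, a keratin of the upper layers of mucosal epithelium, had 9.68, 8.47 and 7.86 TPM in the irradiated WT libraries and 22.6, 24.4 and 27.1 TPM in the irradiated KO libraries. All KO libraries were higher, and the mean was 2.85-fold higher (log2 fold change 1.41, SE 0.11, adjusted p = 3.1e-05). SERPINB13, an inhibitor of cathepsins, rose from 17.4, 18.3 and 15.6 TPM to 32.1, 29.2 and 30.6 TPM (log2 fold change 0.81, adjusted p = 9.7e-05), and the desmosomal cadherin DSC3 rose by 0.36 (adjusted p = 0.0027). KLF4, a transcription factor of differentiating epithelium, went the other way, from 32.4, 30.0 and 25.9 TPM to 8.60, 9.27 and 7.24 TPM (log2 fold change -1.70, SE 0.16, adjusted p = 0.00022). KRT17, a keratin of activated and basal-like epithelium, was the second lower gene, at 4307, 4200 and 4337 TPM in WT and 3069, 2962 and 3282 TPM in KO libraries (log2 fold change -0.46, adjusted p = 0.00049). SERPINB3, near 1 TPM in WT cells, was higher (0.71, adjusted p = 0.046), with its call lost without WT 2, WT 3, KO 2 or KO 3 (adjusted p 0.14 to 0.151).

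Matrix and mesenchymal genes moved in both directions, 8 of 55 lower (14.55%) and 4 higher (7.27%). Over all genes 2.66% were lower and 0.927% higher, and the list's median log2 fold change was -0.074. The 4 higher genes were all matrix metalloproteinases of a cluster on chromosome 11. MMP10, stromelysin, was at 8.83, 7.54 and 8.45 TPM in irradiated WT and at 16.9, 19.0 and 18.0 TPM in irradiated KO cells (log2 fold change 1.04, SE 0.07, adjusted p = 2.1e-05). The collagenases MMP13 and MMP1 rose by 0.94 (adjusted p = 0.0025) and 0.71 (adjusted p = 0.0029). MMP7, at 0.866, 1.09 and 0.93 TPM in WT and 2.59, 2.49 and 2.44 TPM in KO libraries, was higher (0.84, adjusted p = 0.015), with adjusted p between 0.0501 and 0.0642 without WT 1, WT 3, KO 1, KO 2 or KO 3. MMP12, which is on no list, rose by 0.97 (adjusted p = 0.0067). The lower genes included SPOCK1, a proteoglycan of the matrix, which went from 16.1, 16.3 and 14.8 TPM to 2.25, 2.97 and 1.63 TPM (log2 fold change -2.37, adjusted p = 4.2e-06). PLAUR (-0.93), the receptor of urokinase, and ITGA5 (-0.60), the fibronectin receptor subunit, also fell.

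Of the 15 largest increases, 5 more kept their calls whichever single library was left out. IGFL1, a small secreted protein of the IGF-like family, rose from 116, 117 and 121 TPM to 221, 226 and 217 TPM (log2 fold change 0.90, SE 0.06, adjusted p = 7.8e-06). AC012184.2, which shares a strand and positions with DDX19A and DDX19B, was at 0 in each irradiated WT library and at 0.909, 1.67 and 1.85 TPM in KO libraries. TCHHL1, a relative of trichohyalin, was below 1 TPM in WT cells (log2 fold change 0.87, adjusted p = 0.0051). AHNAK and MMP12 were the others. CDKN2AIP had the largest fitted increase among genes past the threshold (1.42, adjusted p = 0.047), but 1 WT library was at 4.13 TPM against 9.21 and 9.15 TPM in the others, and its call was lost without any one of the 6 irradiated libraries (adjusted p 0.0759 to 0.133). The calls of RNU6-9, MIR570, IGFL2-AS1, ZNF613 and TTC19 were lost without 4 to 6 of these libraries.

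Most genes that passed in the irradiated cells moved the same way in the unirradiated cells, where 276 genes passed (1.73%). The 2 contrasts share no library, but they compare the same 2 cell populations and share one estimate of the spread. In both arms 218 genes passed, which is 38.0% of the irradiated and 79.0% of the unirradiated genes past the threshold. Of the 218, 167 were lower in both, 50 were higher in both, and 1 went in opposite directions. Of the 355 genes that passed in the irradiated arm alone, 332 had the same direction without radiation and 219 had an unadjusted p under 0.05 there. The same counts over all genes tested are not given, so how far these exceed that background cannot be read from them. The difference between the arms was tested for each gene. It had an unadjusted p under 0.05 for 1056 genes (6.61%) and passed the threshold for 3 (0.0188%). That count was 9 without irradiated KO 1, 7 without unirradiated WT 3, 5 without unirradiated KO 3, 2 without irradiated KO 3, and 1 without unirradiated KO 1 or KO 2 or irradiated WT 2, WT 3 or KO 2. The unirradiated count of 276 was 172 without unirradiated KO 2 and 184 without KO 3.

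**Figure D4:**
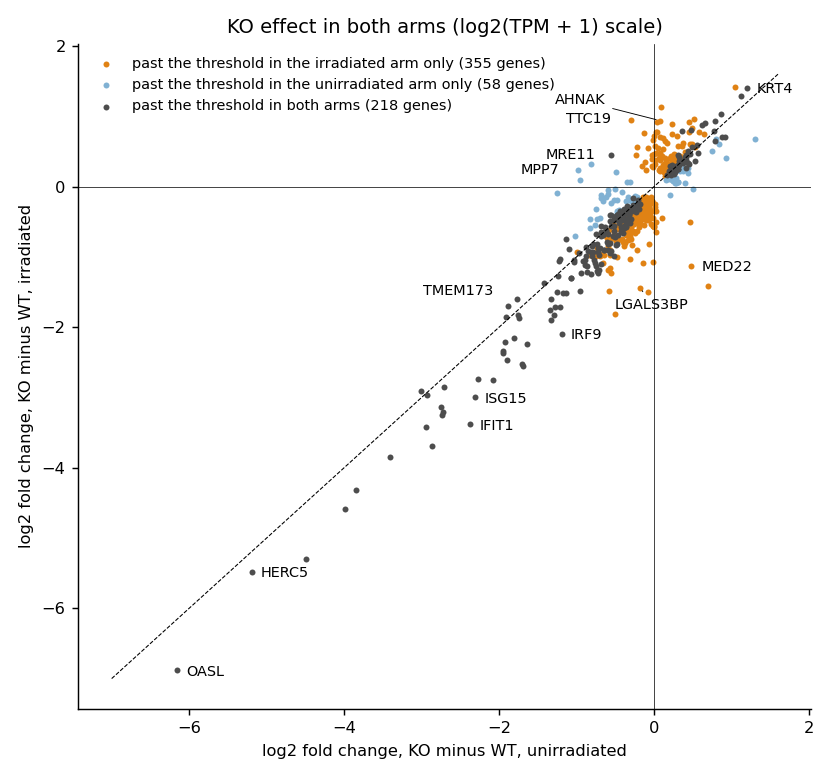
Log2 fold change of STING KO against WT in irradiated cells (vertical axis) against unirradiated cells (horizontal axis), on the log2(TPM + 1) scale, for genes past the threshold in the irradiated arm alone (355), the unirradiated arm alone (58) or both (218). Interferon-stimulated genes such as IFIT1 and IRF9 lie below the dashed line of equal change, and AHNAK, MRE11, MPP7 and TTC19 lie above it.

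The fitted decreases of antiviral genes were mostly larger in the irradiated arm, as were those of all genes lower there, and no antiviral gene passed the test of the difference. Of the 40 lower antiviral effectors, 37 had the larger decrease in irradiated cells, beside 384 of all 425 genes lower there, and a choice by the irradiated arm favors larger decreases in that arm. Of the same 40 effectors, 21 had an unadjusted p under 0.05 for the difference, against 6.61% of all genes, which were not chosen that way. After adjustment 0 genes of the list passed. The median of the list was -0.88 with and -0.62 without radiation. ISG15 shows the levels behind this. It was at 334, 384 and 295 TPM in unirradiated WT and at 68.9, 64.7 and 68.2 TPM in unirradiated KO cells, against a mean of 548 ± 26.7 TPM in irradiated WT and 67.8 ± 4.53 TPM in irradiated KO cells (SD, n = 3). The KO means were close in both arms and the WT mean was higher in the irradiated arm. The difference of the log2 fold changes was -0.69 (95% interval -0.97 to -0.42, adjusted p = 0.27). For IFIT1 it was -1.01 (adjusted p = 0.14), for IRF9 -0.90 (adjusted p = 0.63) and for HLA-B -0.07 (interval -0.46 to 0.31).

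The 3 genes whose KO effect differed between the arms past the threshold were MPP7, MRE11 and AHNAK. AHNAK, a very large scaffold protein under the membrane, was at 137, 127 and 130 TPM in irradiated WT and at 251, 257 and 253 TPM in irradiated KO cells, which is 0.94 higher on the log2 scale (SE 0.07, adjusted p = 1.8e-05). Without radiation the WT libraries were at 248, 295 and 280 TPM and the KO libraries at 298, 296 and 270 TPM, so the irradiated WT cells were the low group. MRE11, the nuclease of the complex that senses DNA double-strand breaks, was at 17, 18.5 and 17.6 TPM in irradiated WT and 22, 25.9 and 25.6 TPM in irradiated KO cells (log2 fold change 0.45, adjusted p = 0.017). Without radiation the WT libraries were at 28.4, 24.9 and 24.4 TPM and the KO libraries at 16.8, 16.2 and 18.7 TPM (log2 fold change -0.56, adjusted p = 0.0072). The groups did not overlap in either arm, and their order was turned. The call in irradiated cells was lost without WT 1, WT 3, KO 2 or KO 3 (adjusted p 0.0589 to 0.0723), and ANKRD49 overlaps MRE11 on the opposite strand. MPP7, a scaffold of cell polarity and junctions, was at 13.4, 13.8 and 12.5 TPM in irradiated WT and 15.3, 16 and 15.9 TPM in irradiated KO cells, which did not pass (log2 fold change 0.23, adjusted p = 0.062). In unirradiated cells it was at 18.6, 17.2 and 17.2 TPM in WT and 8.57, 8.26 and 8.64 TPM in KO libraries, a fall of the mean from 17.7 to 8.49 TPM.

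For genes that passed in irradiated cells and had an unadjusted p over 0.05 in unirradiated cells, of which there were 136, the 5 largest decreases were in AC011479.1 (listed at 0 in all 3 KO libraries), AP001318.3 (-1.50), LGALS3BP (-1.44), AC105446.1 (-1.23) and MED22 (-1.12). AC011479.1 overlaps C19orf33 and SPINT2 on the same strand, and AP001318.3 overlaps DCPS and TIRAP on the opposite strand, so the split of reads is uncertain. LGALS3BP, a secreted glycoprotein that binds galectins, was at 458, 294 and 371 TPM in irradiated WT and at 157, 123 and 129 TPM in irradiated KO cells. Its groups did not overlap in irradiated cells. Its unirradiated groups overlapped and varied widely, at 161, 287 and 334 TPM in WT (mean 261) and 305, 222 and 157 TPM in KO libraries (mean 228). MED22, a subunit of the Mediator complex, was at 54.5, 58.3 and 57.1 TPM in irradiated WT and at 24.4, 26.8 and 25.2 TPM in irradiated KO cells. Without radiation MED22 was at 58.4, 56.3 and 26.1 TPM in WT and at 72.9, 57.0 and 57.1 TPM in KO libraries. These groups overlapped and 1 WT library lay far below the others. The log2 fold change there was 0.48, in the opposite direction, and the difference had an adjusted p of 0.43. By limma's test of the difference, AC011479.1 (adjusted p = 0.62), AP001318.3 (0.42), LGALS3BP (0.68) and AC105446.1 (0.84) did not pass either. The calls were lost without WT 1, WT 3, KO 2 or KO 3 for LGALS3BP (adjusted p 0.0762 to 0.0988), without WT 1, WT 2, WT 3, KO 1 or KO 3 for AC105446.1 (0.0667 to 0.129), and without any one of the 6 irradiated libraries for MED22 (0.0799 to 0.104).

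The genes past the threshold were unevenly spread over types and chromosomes. Of 12624 protein-coding genes tested, 523 passed (4.14%), against 50 of 3349 genes of other types (1.49%). Chromosome 17 held 49 lower genes (4.84% of those tested there), and the median log2 fold change over all its genes was -0.096 in irradiated and -0.087 in unirradiated cells. The medians of the irradiated KO libraries, as deviations from the WT mean, were -0.093, -0.087 and -0.109 on this chromosome, and each of its windows of 20 Mb had a negative median. Chromosome 22 held 21 lower genes, a larger share (5.06% of those tested there, against 2.66% of all genes). Chromosomes 22 (-0.071) and 7 (-0.064) had negative medians and chromosome 15 (0.068) a positive one, all of the same sign in the unirradiated arm. Chromosome 1 held 43 of the 148 higher genes (2.70% of those tested there, against 0.927% of all genes), and its median was 0.034. Their part in the named changes was not tested.

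**Figure D5:**
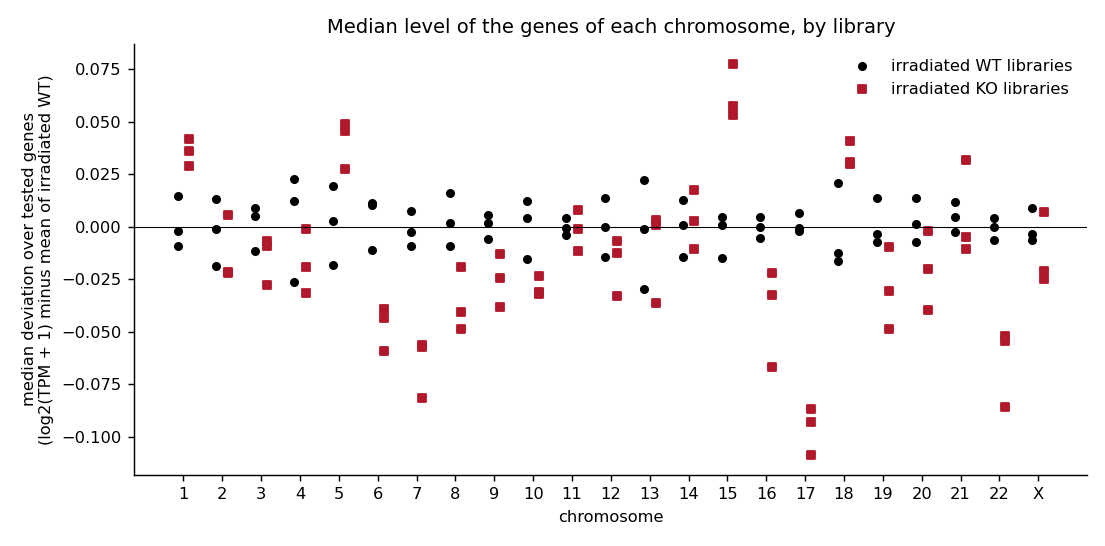
Median over the tested genes of each chromosome of log2(TPM + 1) minus the mean of the irradiated WT libraries, for each irradiated library (WT black circles, KO red squares). On chromosome 17 the 3 KO libraries lie between -0.087 and -0.109, and on chromosome 15 they lie above all WT libraries.

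The libraries had similar expression profiles, and TPM hold no direct measure of RNA or read quality. Over the tested genes, Pearson's r of log2(TPM + 1) as a description across genes was 0.983 to 0.987 between libraries of one irradiated group and 0.978 to 0.982 between irradiated KO and WT libraries. Between 15079 and 15292 genes reached 1 TPM in an irradiated library. All 12 squamous carcinoma markers were tested, and their summed level was 8410 to 8929 TPM in irradiated WT and 7748 to 8763 TPM in irradiated KO libraries. Of 12 leukocyte markers 3 were tested, with a sum of 28.9 to 35 TPM in WT and 21.9 to 30.1 TPM in KO libraries, and CD3D, CD3E, MS4A1 and NKG7 were listed at 0 in all 6. Fibroblast markers summed to 6.50 to 9.38 and 7.22 to 7.71 TPM and endothelial markers to 20.1 to 21.1 and 21.2 to 25.1 TPM, with LUM, CLDN5 and EMCN at 0. None of 20 housekeeping genes passed the threshold by limma, against 3.59% of all genes tested, and the lowest was at 19.9 TPM. By limma 4 of the 20 had an unadjusted p under 0.05, against 2855 of all 15973 genes.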

How the data were processed

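RNA purified with oligo-dT beads was sequenced as paired ends in 12 libraries. The authors deposited TPM per gene and library, each library summing to 1000000, and their processing notes name HISAT2, StringTie, DESeq2 and hg38, without versions here. The annotation and strand setting are not given in the sources used here. The column names are not those of the labels. NT2 was read as non-targeting gRNA 2, named in the methods, and the other name as the KO line. Read depth cannot be had from TPM, so values carry no counting error, and DESeq2, the authors' count test, was not used. TPM is also compositional, so a change in abundant genes shifts all others.

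From the deposited TPM, log2(TPM + 1) was fitted for the 15973 genes tested with limma 3.58.1 in R 4.3.3 (4 group means, eBayes with trend, 8 residual degrees of freedom), with the contrasts KO minus WT in irradiated cells, in unirradiated cells and their difference. Intervals are 95%. The code was tested on simulated data. Gene coordinates and types came from GENCODE 29, which matched 58025 of the 58288 identifiers. Named genes were TMEM173, the 15 largest decreases and increases past the threshold with groups that did not overlap, up to 4 genes in each direction per list, genes named by the study, the 3 genes with a difference past the threshold, and the 5 largest in each direction that passed only in irradiated cells with an unadjusted p over 0.05 without radiation. The genes, lists and motifs were chosen with earlier results of these data known, and lists were not tested as sets. Replicate numbers did not pair the samples. Some genes that met these rules are not reported here.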

Additional observations from a re-analysis of the deposited data

Results flagged for a closer look

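In 3 genes the effect of STING loss differed between irradiated and unirradiated cells by limma's test of the difference itself. The log2 fold change in irradiated cells exceeded that in unirradiated cells by 1.21 for MPP7 (95% interval 1.03 to 1.39, adjusted p = 0.00055), by 1.01 for MRE11 (0.74 to 1.27, adjusted p = 0.035) and by 0.87 for AHNAK (0.66 to 1.07, adjusted p = 0.018). MPP7 kept this call in all 19 alternative fits, with adjusted p of at most 0.0108. AHNAK kept it in 11, with adjusted p up to 0.099, and lost it without irradiated WT 2, WT 3, KO 2 or KO 3 or unirradiated KO 1 or KO 2. MRE11 kept it in 8, with adjusted p up to 0.195, and lost it without irradiated WT 1, WT 2, WT 3, KO 2 or KO 3 or unirradiated WT 1, WT 2, KO 1 or KO 2. The difference stayed positive in each of these fits, from 0.814 to 0.94 for AHNAK and from 0.941 to 1.08 for MRE11.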

How the results depend on the processing

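Of the 81 named genes past the threshold in irradiated cells, 48 kept their call in every alternative that tested them and 0 reversed. There were 20 alternatives, but 19 for genes with a mean under 5 TPM, which the setting with a mean of at least 5 TPM left out. The count of 573 became 252 with only the 6 libraries compared (203 lower and 49 higher) and fewer degrees of freedom, where 26 named genes lost their call. Leaving out each library in turn gave 313 to 542 genes (234 to 395 lower and 78 to 147 higher). The replicate block gave 378 genes, 363 of them shared with the fit without it, with 87 higher, but same-numbered libraries did not deviate together (r between -0.060 and 0.021), so the numbers were not taken as pairs. In unirradiated cells 103 genes passed with only those 6 libraries, and 172 to 292 without single libraries. The 3 genes with a difference between the arms became 7 with no filter on low values, 1 with eBayes without trend, 1 with the replicate block and 1 to 9 without single libraries. Genes of the lists past the threshold numbered 89 to 115 without single libraries, against 117, and TMEM173 lay between -1.64 and -1.51. Without single unirradiated libraries, which enter only through the spread, AC105446.1, AKR1B1, CDKN2AIP, DHCR7, IRF1, MCM3, MED22, MIR570, PSAT1, RNU6-9, SERPINB3 and TRIB3 lost calls too. The pseudocount of 0.1, the mean of at least 5 TPM and the median-of-ratios factors kept the count of 573 within 1.5 times. The cause of the differences between settings was not tested. TPM holds no depth, so how far depth limits low genes is unknown.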

Other observations

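Among genes that did not pass the threshold, the largest fitted change in irradiated cells was in MIR1244-1, chosen after its values were seen. It was at 0.245, 383 and 691 TPM in irradiated WT and at 0.297, 0.337 and 0.4 TPM in irradiated KO cells, and in the unirradiated WT libraries at 0.313, 0.337 and 1031 TPM. The log2 fold change was -5.68 with an adjusted p of 0.31. A few libraries carried nearly all of its signal in STING WT cells with or without radiation.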
